A study of Mus musculus with 6 samples.

Results

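Cholesterol and fatty acid synthesis genes are a group of 34 genes chosen by name: 18 enzymes of sterol synthesis, 5 regulators of the SREBP transcription factors, 3 genes of sterol uptake and efflux, and 8 enzymes of fatty acid synthesis and desaturation. Each gene was read at its brightest probe set among those that carry its symbol alone, and 31 of the 34 had such a probe set among the 22180 genes measured. Idi1 and Scd2 share their probe sets with a further symbol, and Idi1, Scd2 and Acat2 were not analysed here. The cells are KP1, 1 mouse small cell lung cancer line in which the Rb, p53 and p130 genes are all knocked out, in both groups alike. Both groups were sorted for GFP 48 hours after transfection, and 1 Affymetrix Mouse Gene 2.0 ST array was run per sample on total RNA. N1ICD cells (3 arrays) received a vector for the Notch1 intracellular domain, the released and active form of the receptor, joined through an ires to GFP, and control cells (3 arrays) received the empty vector with GFP alone. The labels call the samples of a group biological replicates. No source says whether each came from its own transfection, and p-values therefore measure the spread between these samples.

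Cells make cholesterol from acetyl units through the mevalonate pathway, which runs from acetoacetyl-CoA through mevalonate and isoprenoids to squalene and from squalene through lanosterol to cholesterol. The genes of the route are driven by SREBP transcription factors. These are held in the endoplasmic reticulum by Scap and the Insig proteins when sterols are plentiful and are released to the nucleus when sterols are scarce. The Srebf2 product acts mainly on sterol genes and the main Srebf1 products more on fatty acid genes, and oxysterols act through LXR receptors on efflux and desaturase genes such as Abca1 and Scd1.

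The transfection was visible in the RNA. Notch1 had log2 expression of 8.07, 7.49 and 7.72 in N1ICD arrays, against 6.35, 6.20 and 5.96 in control arrays. The Notch targets Hes1, Hey1 and Nrarp rose by 3.46 ± 0.11, 4.42 ± 0.12 and 3.14 ± 0.11 on the log2 scale (SE of the limma fit, n = 3 each). The 6 array medians of log2 expression were 6.19 to 6.24 in N1ICD arrays and 6.14 to 6.20 in control arrays. All 13 neuroendocrine markers measured had a mean above every array median, and 2 of them rose (Chga and Ncam1) and 2 fell (Insm1 and Dll3). Chga kept its call in 2 of the 6 fits without 1 array and Ncam1 in 1 (highest adjusted p = 0.0638 and 0.0955). Markers of other cells were mostly dim. None of 7 macrophage markers passed the test (1 did at an unadjusted p under 0.05, as did 4408 of all 22180 genes). Their summed log2 levels were 35.7 to 36.6 in N1ICD arrays and 35.9 to 36.8 in control arrays. Among 7 fibroblast markers Pdgfrb rose and Pdgfra fell (the fall held in 2 of those 6 fits, with a highest adjusted p of 0.0736), with sums of 40.4 to 40.7 in N1ICD arrays and 40.4 to 41.4 in control arrays. Among 6 endothelial markers the VEGF receptor Kdr (3.04 ± 0.17) and the angiopoietin receptor Tek (1.06 ± 0.14) rose and the sums were 38.2 to 38.8 in N1ICD arrays, against 33.7 to 34.6 in control arrays, while Pecam1, Cdh5, Emcn and Vwf had means below every array median. The part of these markers in the results below was not tested.

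Sterol synthesis genes had higher means in N1ICD cells at every measured step. All 16 measured enzymes had a higher mean in N1ICD than in control arrays, against 45.5% of all genes, and their median log2 change was 0.425, against -0.0202 over all genes tested. A gene is said to have risen or fallen where limma's p, adjusted over all 22180 genes by the Benjamini-Hochberg method, was under 0.05. By that test 5 of the 16 rose (Mvk, Pmvk, Fdps, Msmo1 and Nsdhl) and 0 fell, also at an unadjusted p under 0.05, where 13 were higher. Over all genes 3.82% rose and 3.27% fell, 7.1% in all (848 and 726 genes, but 730 and 948 with equal array medians). At an unadjusted p under 0.05, 1924 of all 22180 genes were higher and 2484 lower. In 12 of the 16 every N1ICD array lay above every control array, as in 11.1% of all genes. In RNA of a sorted population, a change in the share of cells that make a transcript and a change in its level per cell cannot be told apart. The sizes were modest, from 0.13 to 0.74 on the log2 scale.

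**Figure D1:**
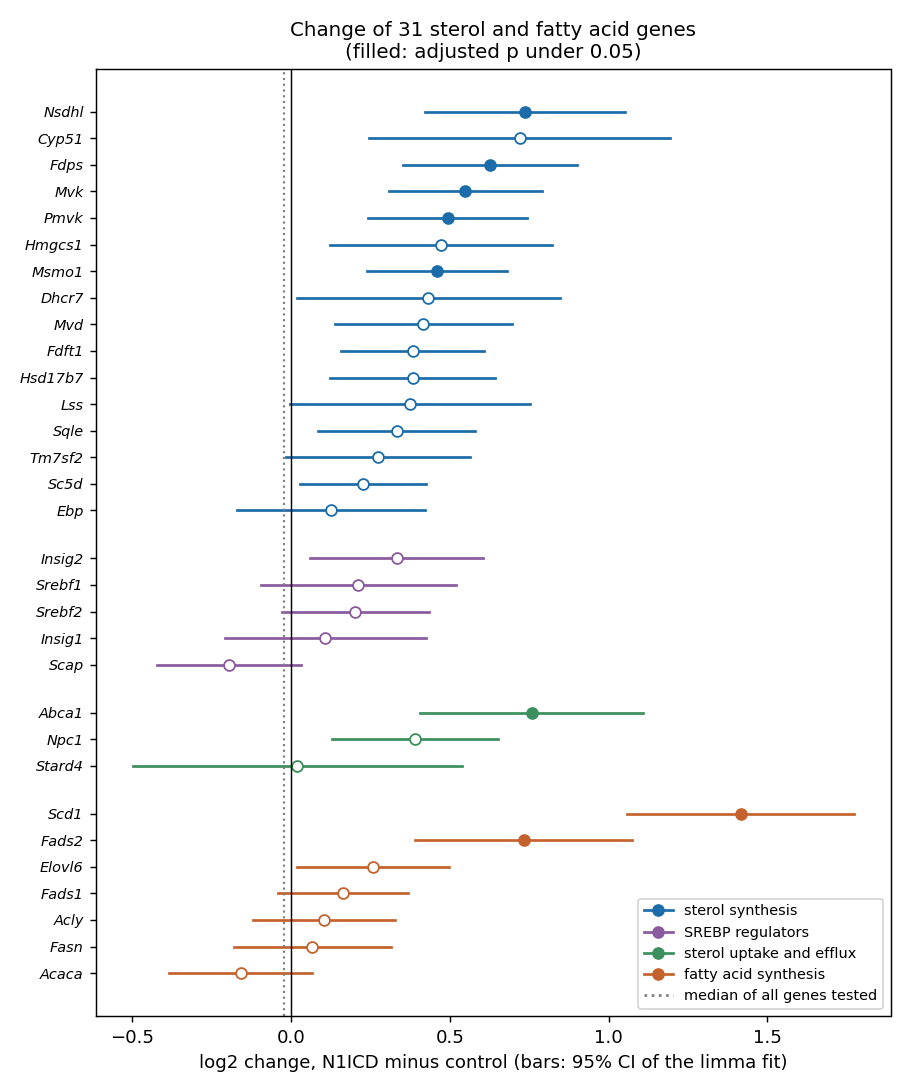
Log2 change (N1ICD minus control) of the 31 measured genes with the 95% confidence interval of the limma fit, by arm; filled points passed the test at an adjusted p under 0.05, and the dotted line is the median of all genes tested. All 16 sterol synthesis genes lie right of 0, with a median of 0.425. Fasn and Acly lie near 0 (0.07 and 0.10) and Acaca left of it (-0.16).

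Among the enzymes that lead to squalene, 3 of 6 measured rose, and the 6 had a median log2 change of 0.484. Mvk, mevalonate kinase, had log2 expression of 8.72, 8.64 and 8.64 in N1ICD arrays, against 7.98, 8.10 and 8.27 in control arrays. All N1ICD arrays were higher, and the change was 0.55 ± 0.10 on the log2 scale, or 1.46-fold (limma adjusted p = 0.0184). Pmvk, phosphomevalonate kinase and the next enzyme of the route, had 9.54, 9.77 and 9.64 in N1ICD arrays, against 9.02, 9.17 and 9.27 in control arrays. It rose by 0.49 ± 0.11 (adjusted p = 0.0330). Fdps, farnesyl diphosphate synthase, whose product feeds sterols and protein prenylation, had 11.17, 11.17 and 11.21 in N1ICD arrays, against 10.38, 10.51 and 10.78 in control arrays. The N1ICD arrays were nearly level and the control arrays spread over 0.204 (SD), with a change of 0.63 ± 0.12 (adjusted p = 0.0180).

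The other 3 enzymes of this stretch did not pass the test. Hmgcs1, the synthase that forms HMG-CoA and one of the brightest members, had 11.95, 12.24 and 12.28 in N1ICD arrays, against 11.46, 11.64 and 11.95 in control arrays. N1ICD replicate 1 and control replicate 3 met at the same level, and the log2 change of 0.47 ± 0.15 had an adjusted p of 0.121. Mvd, mevalonate diphosphate decarboxylase, differed by 0.42 ± 0.12 (adjusted p = 0.0876) and Fdft1, squalene synthase, by 0.38 ± 0.10 (adjusted p = 0.0566), both with groups that did not overlap. Fdft1 and Cyp51 were the members just outside the threshold, and Pmvk and Msmo1 those just inside it.

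Of the 10 enzymes from squalene to cholesterol, 2 rose, and the median log2 change was 0.38. Nsdhl, a dehydrogenase that takes part in removing the methyl groups of lanosterol-derived sterols, had log2 expression of 10.40, 10.66 and 10.64 in N1ICD arrays, against 9.70, 9.70 and 10.08 in control arrays. Its change of 0.74 ± 0.14, or 1.67-fold, was the largest among the sterol enzymes (adjusted p = 0.0163). Msmo1, the oxidase that acts on the same methyl groups, had 10.13, 10.22 and 10.23 in N1ICD arrays, against 9.65, 9.71 and 9.83 in control arrays. It rose by 0.46 ± 0.10 (adjusted p = 0.0258), and its groups did not overlap.

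Cyp51, the lanosterol demethylase, had a change close to that of Nsdhl with a larger SE. It had 9.90, 10.56 and 10.42 in N1ICD arrays, against 9.24, 9.64 and 9.83 in control arrays, and a log2 change of 0.72 ± 0.21 (adjusted p = 0.0830). Hsd17b7, the ketosteroid reductase that works with Msmo1 and Nsdhl, differed by 0.38 ± 0.11 (adjusted p = 0.0932). Sqle, squalene epoxidase and a rate-limiting enzyme of the route, differed by 0.33 ± 0.11 (adjusted p = 0.122), and its groups did not overlap. The cyclase Lss (0.38 ± 0.16), the reductase Tm7sf2 (0.27 ± 0.13), the desaturase Sc5d (0.23 ± 0.09), the isomerase Ebp (0.13 ± 0.13) and the last reductase of the route, Dhcr7 (0.43 ± 0.18), had adjusted p between 0.190 and 0.664. For Lss, Ebp and Dhcr7, N1ICD replicate 1 lay below control replicate 3.

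The arrays of a group were not level for these genes. N1ICD replicate 1 was the lowest N1ICD array in 14 of the 16 enzymes, and control replicate 3 was the highest control array in 14 of them. The mean over the 16 enzymes was 9.89, 10.11 and 10.07 in N1ICD arrays, against 9.46, 9.55 and 9.75 in control arrays. Among the 7 fatty acid synthesis genes, control replicate 1 was the lowest control array in 7 and control replicate 3 the highest in 6.

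**Figure D2:**
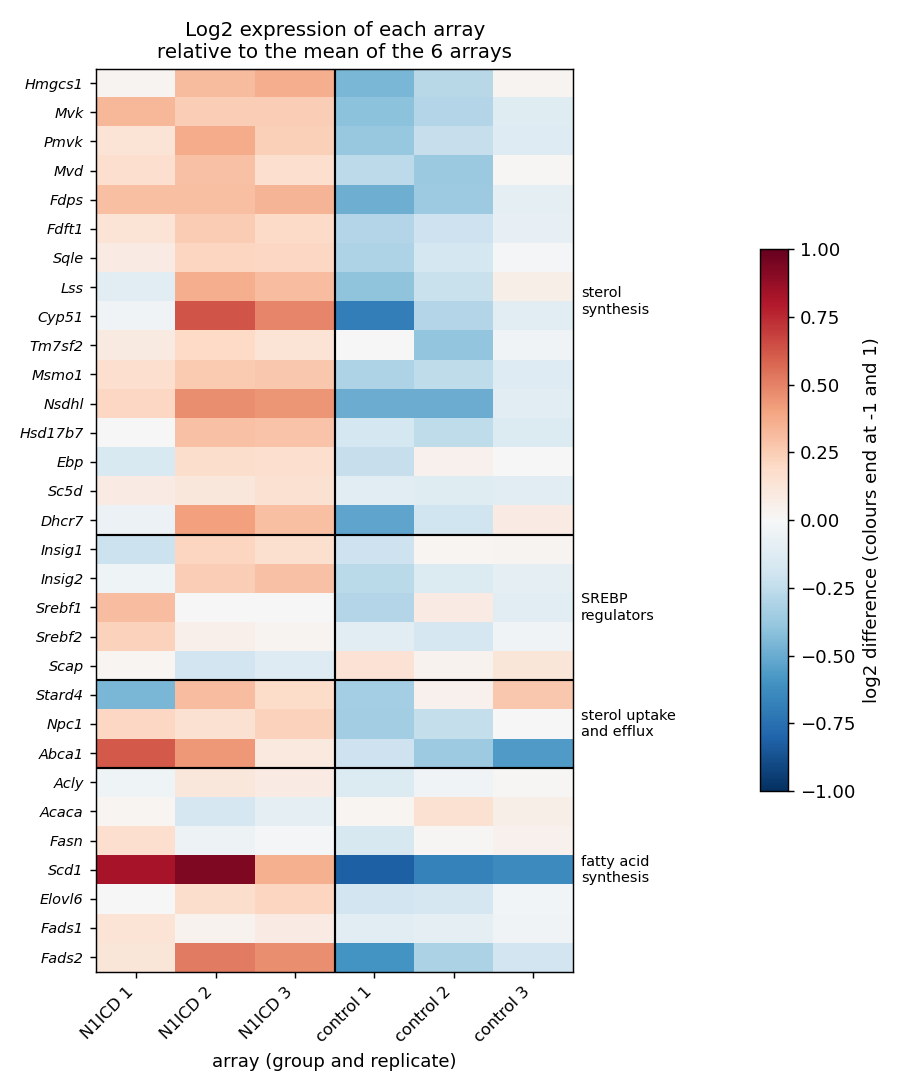
Log2 expression of each of the 31 genes on each array relative to its mean over the 6 arrays (colour scale in log2 units; N1ICD arrays left of the line, control arrays right). The sterol synthesis block is red in N1ICD replicates 2 and 3, where its mean is 10.11 and 10.07, paler in N1ICD replicate 1 (9.89), and bluest in control replicate 1 (9.46).

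Promoters are shown because NF-Y, which binds the CCAAT box, is a known partner of SREBP at sterol promoters. RefSeq sequence of build GRCm38.p6 was given for 26 of the 34 genes, as the 250 bases before the most upstream start of the gene, 5′ to 3′ on the gene's strand. Capitals mark CCAAT, the RBPJ core TGGGAA and the sterol regulatory element TCACNCCAC, each searched on both strands, so that ATTGG and TTCCCA are the reverse forms of CCAAT and TGGGAA. The first 4 genes below are the sterol enzymes that rose and have a promoter sequence, Hmgcs1 is the single member with a match to TCACNCCAC, and Fads2, like Abca1, rose without a CCAAT match.
Mvk (chr5:114444019-114444268, plus strand): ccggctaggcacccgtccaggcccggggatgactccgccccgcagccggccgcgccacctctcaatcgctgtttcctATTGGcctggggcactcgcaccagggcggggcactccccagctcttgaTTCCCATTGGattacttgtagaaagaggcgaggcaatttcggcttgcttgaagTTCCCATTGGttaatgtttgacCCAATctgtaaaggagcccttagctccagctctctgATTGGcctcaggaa
Pmvk (chr3:89454291-89454540, plus strand): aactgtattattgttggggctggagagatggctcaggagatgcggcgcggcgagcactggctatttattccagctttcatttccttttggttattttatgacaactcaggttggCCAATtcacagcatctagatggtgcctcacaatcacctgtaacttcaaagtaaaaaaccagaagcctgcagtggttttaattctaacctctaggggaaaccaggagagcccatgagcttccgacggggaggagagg
Msmo1 (chr8:64733579-64733828, minus strand): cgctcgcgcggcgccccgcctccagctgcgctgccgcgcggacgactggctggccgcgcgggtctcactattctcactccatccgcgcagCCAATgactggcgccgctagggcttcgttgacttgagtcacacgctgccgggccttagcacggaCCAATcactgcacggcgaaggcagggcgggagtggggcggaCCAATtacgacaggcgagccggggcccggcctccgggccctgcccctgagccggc
Nsdhl (chrX:72918271-72918520, plus strand): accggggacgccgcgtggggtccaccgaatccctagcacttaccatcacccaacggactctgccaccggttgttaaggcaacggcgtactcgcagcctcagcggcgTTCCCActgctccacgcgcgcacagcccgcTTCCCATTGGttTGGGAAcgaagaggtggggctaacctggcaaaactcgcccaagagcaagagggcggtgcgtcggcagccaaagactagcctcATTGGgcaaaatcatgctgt
Hmgcs1 (chr13:119690101-119690350, plus strand): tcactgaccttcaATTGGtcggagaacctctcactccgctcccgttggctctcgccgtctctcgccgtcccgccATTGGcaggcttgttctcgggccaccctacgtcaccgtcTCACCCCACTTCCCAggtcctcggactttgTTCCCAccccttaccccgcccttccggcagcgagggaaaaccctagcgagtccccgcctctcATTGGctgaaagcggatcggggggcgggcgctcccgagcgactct
Fads2 (chr19:10101504-10101753, minus strand): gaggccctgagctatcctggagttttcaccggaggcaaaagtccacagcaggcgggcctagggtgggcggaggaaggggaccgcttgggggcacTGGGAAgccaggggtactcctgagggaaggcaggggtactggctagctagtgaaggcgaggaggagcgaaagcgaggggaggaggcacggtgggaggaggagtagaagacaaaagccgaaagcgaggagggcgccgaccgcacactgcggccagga

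CCAAT was present in 13 of the 15 sterol enzyme promoters, in 4 of 5 of the SREBP regulators and in 1 of 5 of the fatty acid genes, that of Fasn. Abca1, the single uptake and efflux gene with a promoter sequence, had 0. It was present in 34.5% of the promoters of all 27025 genes and in 36.5% of those of protein-coding genes. Mvk held 5 matches and Msmo1 3. Acat2 and Dhcr7 were the sterol enzymes with 0. In Mvk 2 of the CCAAT matches, and in Nsdhl 1, overlap a TGGGAA match in reverse (the run TTCCCATTGG). TGGGAA itself was present in 4 of the 15 sterol enzyme promoters (Hmgcs1, Mvk, Nsdhl and Sc5d) and in 21.5% of all promoters. TCACNCCAC was present in Hmgcs1 alone, and in 1.03% of all promoters. CACGTG, the E box, was present in 2 of the 15 (Hsd17b7 and Sc5d) and in 6.04% of all promoters. With Insig1 and Abca1 it was present in 4 of the 26 member promoters. These matches describe the letters in the window. A match does not show that a factor binds there, and the lack of an exact match does not show that none does. The genes were listed by pathway, and a link between the matches and the changes in N1ICD cells was not tested.

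None of the 5 SREBP regulators passed the test, and their median log2 change was 0.204. At an unadjusted p under 0.05, 1 of them passed (Insig2), as did 4408 of all 22180 genes. Srebf2 had log2 expression of 10.76, 10.58 and 10.56 in N1ICD arrays, against 10.43, 10.36 and 10.50 in control arrays. The groups did not overlap, and the log2 change was 0.20 ± 0.10 (95% interval -0.03 to 0.43, adjusted p = 0.315). Srebf1 had 8.51, 8.21 and 8.21 in N1ICD arrays, against 7.91, 8.29 and 8.10 in control arrays, with control replicate 2 above N1ICD replicates 2 and 3 (0.21 ± 0.13, adjusted p = 0.445). Scap, the escort that carries SREBP out of the endoplasmic reticulum, had the lower mean in N1ICD arrays, 9.17 against 9.37 in control arrays (-0.19 ± 0.10, adjusted p = 0.335). Every N1ICD array of Scap lay below every control array, as in 15% of all genes. Scap was the only regulator with a change below 0, and a dimmer probe set of Scap had a log2 change of 0.03.

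Insig1, which retains Scap and is itself a known SREBP target, had overlapping groups. It had 11.13, 11.56 and 11.50 in N1ICD arrays, against 11.14, 11.36 and 11.37 in control arrays (0.11 ± 0.14, 95% interval -0.21 to 0.42, adjusted p = 0.742). Its relative Insig2 had 7.87, 8.16 and 8.21 in N1ICD arrays, against 7.64, 7.78 and 7.82 in control arrays (0.33 ± 0.12, adjusted p = 0.161). The change of Insig1 minus that of Insig2 was -0.225, with within-array differences of 3.26 to 3.40 in N1ICD arrays and 3.50 to 3.58 in control arrays. The two-sided exact permutation p was 0.1, the smallest that 3 against 3 arrays allow, and 0.15 after adjustment over 3 pairs of related genes. The changes of Srebf1 and Srebf2 differed by 0.00941 (exact p = 0.9).

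Of the 3 genes of sterol uptake and efflux 1 rose, and the median log2 change was 0.391. Abca1, the transporter that loads cholesterol onto apolipoproteins, had log2 expression of 7.59, 7.41 and 7.08 in N1ICD arrays, against 6.77, 6.62 and 6.41 in control arrays. It rose by 0.76 ± 0.15, or 1.69-fold (adjusted p = 0.0228). In both groups replicate 1 was highest and replicate 3 lowest, whereas N1ICD replicate 1 and control replicate 1 were most often the lowest of their group among the sterol enzymes. Npc1, which exports cholesterol from lysosomes, had 8.28, 8.22 and 8.30 in N1ICD arrays, against 7.72, 7.83 and 8.07 in control arrays (0.39 ± 0.11, adjusted p = 0.0878). A dimmer probe set of Npc1 had a log2 change of -0.07. Stard4, a cytosolic sterol carrier and SREBP target, had 8.29, 9.06 and 8.93 in N1ICD arrays, against 8.41, 8.79 and 9.02 in control arrays. Its groups overlapped fully and its change was 0.02 ± 0.23 (95% interval -0.50 to 0.54, adjusted p = 0.979), the widest interval of all members.

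Among the fatty acid synthesis genes the rises were those of desaturases. Of 7 measured, 2 rose (Scd1 and Fads2) and 0 fell, also at an unadjusted p under 0.05, where 3 were higher, and the median log2 change was 0.164. Scd1, the desaturase that makes oleate, had log2 expression of 9.74, 9.85 and 9.27 in N1ICD arrays, against 8.10, 8.24 and 8.28 in control arrays. The lowest N1ICD array lay above the highest control array, and the change of 1.42 ± 0.16, or 2.67-fold, was the largest of all members (adjusted p = 0.00121). Fads2, the first desaturase of polyunsaturated fatty acid synthesis, had 11.87, 12.27 and 12.21 in N1ICD arrays, against 11.15, 11.43 and 11.56 in control arrays. It rose by 0.73 ± 0.15, or 1.66-fold (adjusted p = 0.0237).

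Fads1, which lies beside Fads2 and acts later on the same fatty acids, had 12.11, 12.01 and 12.06 in N1ICD arrays, against 11.86, 11.88 and 11.94 in control arrays. The groups did not overlap but the change was small (0.16 ± 0.09, adjusted p = 0.367). The change of Fads2 exceeded that of Fads1 by 0.569 (two-sided exact permutation p = 0.1, 0.15 adjusted over 3 pairs), with no overlap of the within-array differences. Elovl6, which lengthens palmitate, differed by 0.26 ± 0.10 (adjusted p = 0.210).

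The enzymes that make palmitate showed no change past the test. Fasn, fatty acid synthase, had 11.32, 11.10 and 11.13 in N1ICD arrays, against 10.99, 11.16 and 11.19 in control arrays, with overlapping groups (0.07 ± 0.11, 95% interval -0.18 to 0.31, adjusted p = 0.804). Acly, which supplies cytosolic acetyl-CoA, had 10.82, 10.98 and 10.95 in N1ICD arrays, against 10.73, 10.83 and 10.88 in control arrays (0.10 ± 0.10, 95% interval -0.12 to 0.33, adjusted p = 0.633). Acaca, the carboxylase that makes malonyl-CoA, had 9.46, 9.27 and 9.35 in N1ICD arrays, against 9.46, 9.59 and 9.50 in control arrays (-0.16 ± 0.10, 95% interval -0.38 to 0.07, adjusted p = 0.436). Before rounding, every N1ICD array of Acaca lay below every control array. The difference between the sterol and fatty acid arms was not tested, since the members were chosen with results of these data known.

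**Figure D3:**
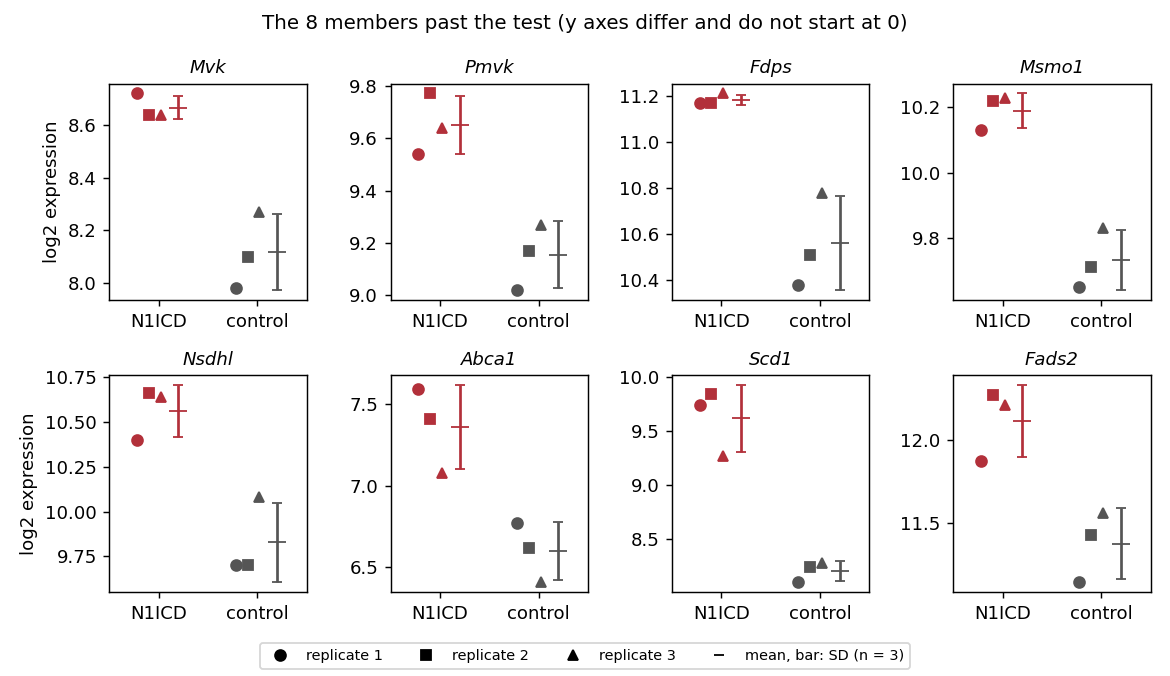
Log2 expression of the 8 genes that rose, by array (circle, square and triangle for replicates 1, 2 and 3), with the mean and SD of each group (n = 3); the y axes differ and do not start at 0. In all 8 the N1ICD arrays lie above the control arrays, with the widest gap for Scd1 (means of 9.62 and 8.20) and the narrowest within-group spread for Fdps in N1ICD arrays (SD 0.022).

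Over the 31 measured genes, 8 rose and 0 fell, and 29 had a higher mean in N1ICD arrays. The calls were sensitive to the loss of 1 array except that of Scd1. It passed in all 6 fits without 1 array (highest adjusted p = 0.00852, without N1ICD replicate 1). Over all genes these fits called 548 to 709 higher and 275 to 585 lower, against 848 and 726 with all 6 arrays. Without N1ICD replicate 2 or control replicate 2, Scd1 alone rose. Without control replicate 1, Scd1 and Abca1 rose; without N1ICD replicate 3, these and Mvk. Without control replicate 3, Mvk, Fdps, Nsdhl, Scd1 and Fads2 rose, and without N1ICD replicate 1, Pmvk, Msmo1, Nsdhl, Scd1 and Fads2 together with Cyp51 (adjusted p = 0.0380) and Hsd17b7 (adjusted p = 0.0391). The highest adjusted p was 0.0698 for Mvk, 0.125 for Pmvk, 0.0698 for Fdps, 0.0983 for Msmo1, 0.0720 for Nsdhl, 0.0906 for Abca1 and 0.0969 for Fads2. Their log2 changes stayed above 0. They were 0.48 to 0.62 for Mvk, 0.43 to 0.55 for Pmvk, 0.54 to 0.74 for Fdps and 0.42 to 0.51 for Msmo1. For Nsdhl they were 0.67 to 0.86, for Abca1 0.64 to 0.90 and for Fads2 0.62 to 0.86. With limma fitted and the p-values adjusted over only the 11279 genes brighter than the lowest array median, 15 rose, 11 of them sterol enzymes. That filter kept all 31 members. Over all 11279 genes 920 rose in that fit and 1286 fell.

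**Figure D4:**
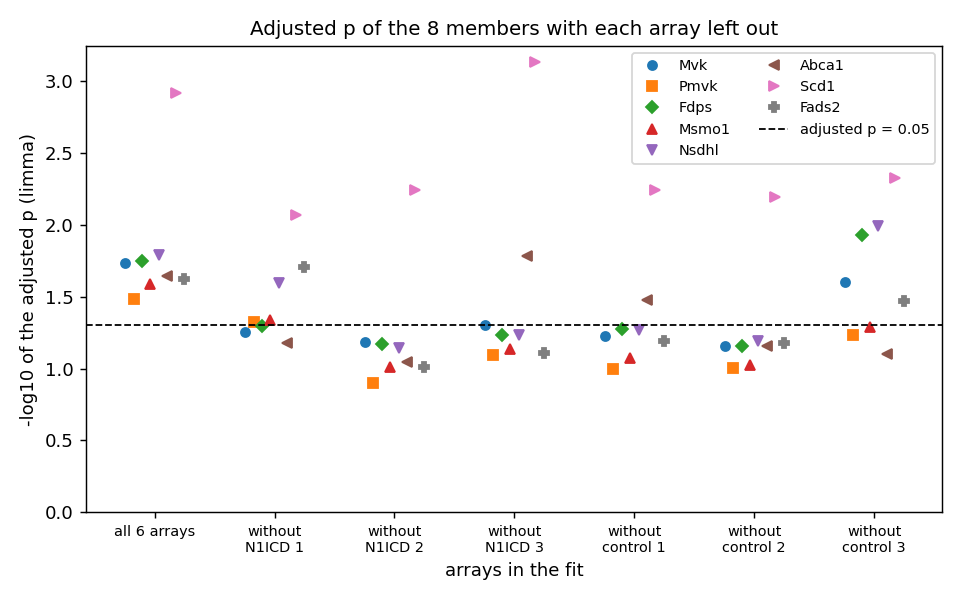
Adjusted p of the 8 genes that rose (limma, as -log10) with all 6 arrays and with each array left out; the dashed line marks an adjusted p of 0.05 and higher points have smaller p. Scd1 stays above the line in all 6 fits, with an adjusted p of at most 0.00852, while each of the other 7 falls below it in 4 or 5 of them.

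Further genes of sterol and lipid metabolism had median changes between -0.0879 and 0.017, list by list. Of 11 genes listed beside the isoprenoid branches, 0 passed the test in either direction, also at an unadjusted p under 0.05 (median -0.0617). Most of them serve protein prenylation or the making of ubiquinone or dolichol, but the list also holds Idi2, an isomerase that acts before Fdps, and Hsd17b12, a reductase of fatty acid elongation. Of 12 further regulators 1 rose and 1 fell (median -0.0879). Lpcat3, which remodels phospholipids, rose by 0.56 ± 0.10 (adjusted p = 0.0149), and Trib1, a pseudokinase adaptor of a ubiquitin ligase, fell by 0.59 ± 0.11 (adjusted p = 0.0201). Lpcat3 lost its call without N1ICD replicate 2 or control replicates 2 or 3 (highest adjusted p = 0.0652), and Trib1 without N1ICD replicates 1 or 2 or control replicates 1 or 3 (highest adjusted p = 0.0781).

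Of 24 genes of sterol transport and storage 3 rose and 2 fell (median 0.017). At an unadjusted p under 0.05, 4 were higher and 4 lower, against 1924 and 2484 of all 22180 genes. The endocytic receptor Lrp1 had 7.92, 7.62 and 7.54 in N1ICD arrays, against 6.88, 6.71 and 6.72 in control arrays (0.92 ± 0.12, adjusted p = 0.00346). Lipa, the lysosomal lipase that frees cholesterol from its esters, averaged 7.77 ± 0.12 in N1ICD arrays and 6.86 ± 0.138 in control arrays (SD, n = 3 each), with no overlap (0.91 ± 0.11, adjusted p = 0.00225). Nceh1, a hydrolase of cholesterol esters, fell by 0.83 ± 0.17 (adjusted p = 0.0222), a call lost without N1ICD replicates 1 or 2 or control replicates 2 or 3 (highest adjusted p = 0.0777). Gramd1b, which moves cholesterol from the plasma membrane to the endoplasmic reticulum, fell by 0.70 ± 0.12 (adjusted p = 0.0108). The transporters Abcg1 (-0.34 ± 0.14, adjusted p = 0.207) and Abca7 (-0.41 ± 0.13, adjusted p = 0.117) did not pass the test. In both, every N1ICD array lay below every control array. That held for 4 of the 24 genes and 15% of all genes, and the reverse for 7 and 11.1%.

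Of 34 further genes of fatty acid and glycerolipid synthesis 5 rose and 1 fell (median 0.00456). Fads3, the third gene of the Fads cluster, had 8.06, 8.26 and 8.09 in N1ICD arrays, against 6.90, 7.03 and 6.94 in control arrays, a rise of 1.18 ± 0.10 (adjusted p = 0.00027). Thrsp, a nuclear protein tied to lipid synthesis, had 10.61, 10.90 and 10.73 in N1ICD arrays, against 9.90, 10.06 and 9.82 in control arrays (0.82 ± 0.12, adjusted p = 0.00429). Acss2, which makes acetyl-CoA from acetate, rose by 0.62 ± 0.11 (adjusted p = 0.0130), a call lost without N1ICD replicate 2 or control replicate 2 (highest adjusted p = 0.0526). Elovl2, which lengthens polyunsaturated fatty acids, fell by 0.75 ± 0.13 (adjusted p = 0.0107). Of 22 genes of fatty acid oxidation 1 rose and 0 fell (median -0.00224). At an unadjusted p under 0.05, 3 were higher and 3 lower, against 1924 and 2484 of all 22180 genes. The rise was that of Decr1, an auxiliary enzyme for unsaturated fatty acids (0.64 ± 0.12, adjusted p = 0.0176), lost without N1ICD replicates 1 or 2 or control replicates 1 or 2 (highest adjusted p = 0.0759).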

How the data were processed

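Total RNA of 6 KP1 samples was measured on 1 array each. The deposited values were made with RMA, per the submitters' processing notes, which give no version. The base of the logarithm and the genome build are stated nowhere in these sources; the deposited values were taken as log2 from their range of 0.64 to 14.09. RMA draws arrays towards 1 distribution, which can hide a shift of total RNA.

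Of 41345 probe sets, 23521 carry 1 gene symbol in the platform annotation, 1814 carry several and 16010 none; the brightest single-symbol probe set by the 6-array mean stood for each of 22180 genes, with no filter on dim genes. N1ICD minus control was fitted with limma 3.58.1 in R 4.3.3 (lmFit, eBayes, two-sided, no covariates), and p-values were adjusted across the 22180 genes by the Benjamini-Hochberg method, with 0.05 as the threshold. The ± beside a change is limma's SE, and beside a level the SD. Lists were described by counts and medians. Related genes were compared by exact permutation over the 20 assignments of arrays; Scd1 against Scd2 was not run. Promoter windows are RefSeq's. Figures used matplotlib 3.10.9. The fit was tested on simulated data, where a true log2 change of 0.5 was called in 8.96% of 67 genes. A change of 1 was called in 71.6% of 67 and a change of 2 in 97% of 66. The simulation gave 122 calls in all, against 1574 in the data, so these shares need not hold for the data. The number of arrays limits the precision.

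All 34 genes are named, and of each further list up to 4 genes past the test by size. The transporters Abcg1 and Abca7, not past the test, are named besides. The members and lists were chosen with earlier results of these data known. Alternatives were other between-array scalings, filters on dim genes, other probe set rules, other eBayes settings, array weights, a threshold of 0.01, a block for the replicate number, and fits without 1 array at a time.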

Additional observations from a re-analysis of the deposited data

How the results depend on the processing

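All 16 sterol enzymes kept a higher mean in N1ICD arrays in every alternative run, and 0 members fell in any. Against 8 members that rose, 15 rose with genes over the lowest array median, 13 with genes above 5 in at least 3 arrays, 16 with robust eBayes and a trend on intensity, and 1 with all probe sets tested or at an adjusted p under 0.01; without 1 array it was 1 to 7. Of the sterol enzymes, against 5, these settings gave 11, 9, 11, 0 and 0, equal array medians gave 3, array weights 8, and fits without 1 array 0 to 5. Of the fatty acid genes, against 2, 1 rose with all probe sets tested or at 0.01, and 1 to 2 without 1 array. Over all genes, against 848 higher and 726 lower, the counts were 548 and 257 with all probe sets tested and 460 and 208 at 0.01. Without 1 array 548 to 709 were higher and 275 to 585 lower. Of the 11279 genes over the lowest array median, 920 were higher and 1286 lower. Of the 15796 genes above 5 in at least 3 arrays, 1027 were higher and 1115 lower. With robust eBayes and the intensity trend 1049 were higher and 1227 lower, and with equal array medians 730 and 948. The median change of the SREBP regulators was 0.149 with equal array medians, 0.140 with array weights and 0.117 to 0.241 without 1 array, against 0.204. That of uptake and efflux genes was 0.162 with the mean over probe sets and 0.313 to 0.490 without 1 array, against 0.391. Stard4 changed by -0.0345 with equal array medians and by -0.142 to 0.256 without 1 array, Fasn by -0.00213 to 0.110, Insig1 by 0.0263 to 0.242, Ebp by 0.0424 to 0.235, Tm7sf2 by 0.148 to 0.348, Dhcr7 by 0.278 to 0.581, Srebf1 by 0.114 to 0.306 and Acly by 0.0610 to 0.153, none past the test in these fits, and the difference between Srebf1 and Srebf2 was -0.085 to 0.137. The cause of these differences was not tested. Both filters refit limma on fewer genes and the all probe set setting on more, so the fit and the adjustment both differ.

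With the replicate block, 10 members rose (the same 8, Hmgcs1 and Cyp51), 7 of them sterol enzymes. Deviations of same-numbered arrays from their group means correlated across genes at 0.232, 0.00831 and 0.201 for numbers 1, 2 and 3. Arrays with unlike numbers correlated at -0.235 to 0.0584. The rule for pairing asked for more than 0.1 in all 3, which number 2 did not reach, so the numbers were not taken to pair the samples. N1ICD replicate 2 correlated best with control replicate 3 (0.0221). These values do not settle whether the samples were paired.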
